A study of Mus musculus with 12 samples.

Results

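The genes described here carry out the sensing of DNA in the cytosol: Cgas, Sting1, Tbk1, Ikbke, Irf3, Trex1, Samhd1, Ifi204 and Aim2. They were chosen by name for their place in the pathway and found through their Entrez identifiers. Of these 9 genes, 7 were analysed, out of 17571 genes in the table, and all 7 passed the filter on low values. Irf3 and Aim2 were not analysed here.

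RNA was measured by RNA-seq in L929 cells, a fibroblast line from connective tissue of the mouse strain C3H/An, with 12 libraries in 4 groups of 3. The mock group received DMSO, the solvent of the inhibitor, and no plasmid. The pEGFP-N1 group received DMSO and the plasmid pEGFP-N1, which carries the gene of a green fluorescent protein. The BX795 group received 0.5 μM BX795, an inhibitor of the kinase TBK1, and the fourth group, BX795 plus pEGFP-N1, received both. DMSO or BX795 was given 1 h before the plasmid and cells were collected 6 h after it. All groups were cells of 1 line, and the labels do not say whether libraries of a group came from separate cultures, so the p-values measure the spread between these libraries, which may be technical. The comparison asks whether the sensing genes change in RNA level when cells are transfected with plasmid DNA and when BX795 is given. The study's methods name a Lipofectamine reagent for plasmid transfection. They do not say whether the groups without plasmid received it, so plasmid and reagent cannot be told apart.

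When DNA reaches the cytosol, the enzyme cGAS binds it and makes the small messenger cGAMP, which binds the membrane protein STING. STING then moves from the endoplasmic reticulum and brings together TBK1 and its relative IKKε, encoded by Ikbke, with the transcription factor IRF3, which switches on interferon β. Secreted interferon acts back on the cell and its neighbours and raises many antiviral genes, some of which belong to the sensing system itself. TREX1 digests DNA in the cytosol, SAMHD1 breaks down deoxynucleotides, and IFI204 and AIM2 belong to the PYHIN family of DNA-binding proteins.

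Values are FPKM as deposited, that is fragments counted relative to transcript length and library size, so levels can be compared between genes. FPKM keeps no read totals and depth is unknown; library sums ran from 467348 to 513761 FPKM. Among fibroblast markers, Vim, Col1a1, Col1a2, Pdgfrb and Fn1 were detected in all 12 libraries and Thy1 was at 0.13 or below. Markers of leukocytes (Ptprc, Csf1r, Adgre1, Itgam), epithelium (Epcam, Cdh1) and endothelium (Pecam1, Cdh5) were at 0.12 or below in every library.

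The interferon readout went against the labels in 2 libraries. Isg15, a ubiquitin-like protein made in response to interferon, was at 152 and 129 FPKM in pEGFP-N1 replicates 1 and 3 but at 1.38 in replicate 2. With BX795 plus pEGFP-N1, it was at 144 in replicate 1 and at 3.39 and 5.15 in replicates 2 and 3. The 3 mock libraries lay between 1.46 and 2.61 and the 3 BX795 libraries between 1.26 and 3.76. Ifit1, another interferon-induced gene, was at 96.7, 95.2 and 92.6 in the same 3 libraries in which Isg15 was high and at 0.57 or below in the other 9. Ifnb1, the gene of interferon β, was at 0.16 or below in all 12. Cxcl10, a chemokine gene of the interferon response, was at 133, 123 and 136 FPKM in those 3 libraries and between 0.31 and 0.47 in mock. It was also above every mock library in the other 6, at 1.58 in pEGFP-N1 replicate 2, at 7.86, 0.9 and 1.85 with BX795, and at 5.68 and 6.47 in BX795 plus pEGFP-N1 replicates 2 and 3. By Isg15 and Ifit1, then, the library labelled pEGFP-N1 replicate 2 was like mock and the library labelled BX795 plus pEGFP-N1 replicate 1 was like pEGFP-N1 replicates 1 and 3. Whether the 2 libraries were exchanged was not tested, and the labels were kept. The fitted differences from mock are therefore also given without these libraries; the counts of groups that did not overlap include them.

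In mock cells the order of the levels was Ifi204, Samhd1, Tbk1, Sting1, Trex1, Ikbke and Cgas. Ifi204 was at 35.7 ± 1.19 FPKM (mean ± SD, n = 3), Samhd1 at 25.1 ± 0.349 and Tbk1 at 21.2 ± 0.59. These 3 genes did not overlap with each other or with the genes below them. Sting1 was at 5.79 ± 0.443, Trex1 at 4.70 ± 0.931, Ikbke at 4.27 ± 0.168 and Cgas at 2.45 ± 0.455. The mock libraries of Sting1 and Trex1 overlapped, as did those of Trex1 and Ikbke, so their order is not settled by these libraries. The sensor Cgas was thus the lowest of the 7 genes, with a mean over all 12 libraries above that of 9.55% of the 10412 tested genes, and Ifi204 was the highest, above 78.5%. The corresponding values were 20.9% for Sting1, 20.5% for Ikbke, 30.3% for Trex1, 60.4% for Tbk1 and 68.0% for Samhd1.

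**Figure D1:**
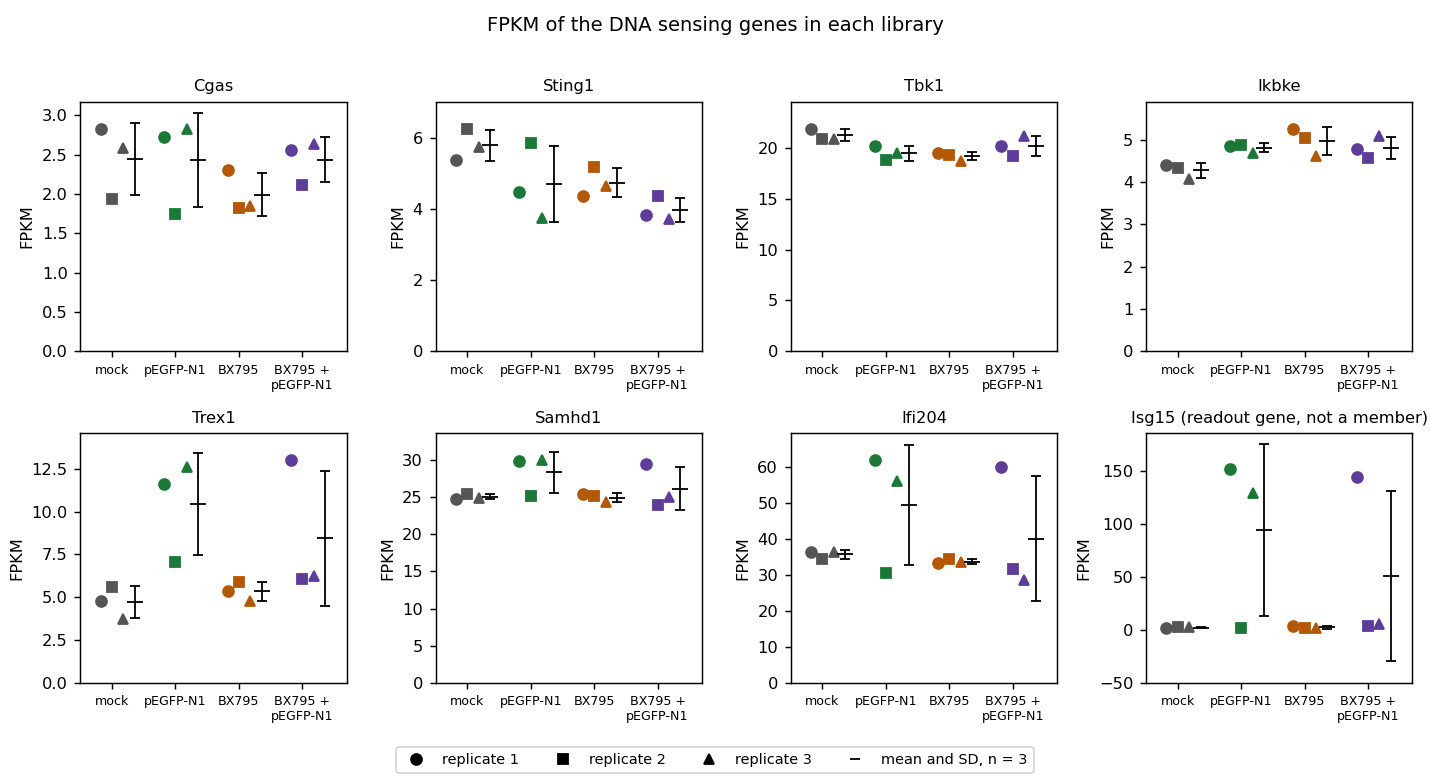
FPKM (y axes, from 0 except for Isg15) of the 7 analysed genes and of the readout gene Isg15 in each library, with the 4 groups on the x axis, 1 symbol for each replicate number, and bars for the mean and SD of 3 libraries. Trex1, Samhd1 and Ifi204 were highest in pEGFP-N1 replicates 1 and 3 and in BX795 plus pEGFP-N1 replicate 1, the libraries with Isg15 between 129 and 152, while Sting1 was below the lowest mock value of 5.38 in 8 of the 9 libraries outside mock.

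Differences between groups were tested with limma on log2(FPKM + 1) over all 12 libraries, with p-values corrected after Benjamini and Hochberg across the 10412 genes that had at least 1 FPKM in at least 3 libraries. Adding 1 shrinks the differences of weakly expressed genes. None of the 7 genes was called at an adjusted p under 0.05 in any of the 6 contrasts. Few genes of any kind were called: 0.0672% for pEGFP-N1 minus mock, 0.0672% for BX795 minus mock, 0.106% for BX795 plus pEGFP-N1 minus mock, and 0% for BX795 plus pEGFP-N1 minus BX795, for BX795 plus pEGFP-N1 minus pEGFP-N1 and for the interaction, which is the plasmid effect in DMSO minus the plasmid effect in BX795. At an unadjusted p under 0.05 the 6 contrasts in that order held 1, 2, 2, 0, 0 and 1 of the 7 genes, beside 488, 1442, 890, 579, 166 and 407 of all tested genes. The median log2 difference from mock over the 7 genes was 0.14 with pEGFP-N1, -0.08 with BX795 and 0.05 with both, beside -0.0026, 0.03 and 0.01 over all tested genes. With 3 libraries a group, a two-sided exact permutation test cannot give a p below 0.1, which it gave for each gene whose groups did not overlap. The 3 comparisons with mock share the mock libraries. When BX795 and mock were fitted without the other groups, 0 of the 7 genes were called beside 2150 of 10412 genes. The count over all genes in this contrast thus changed with the groups that were fitted together. The fit over 4 groups takes a single estimate of spread for each gene from all of them. The interval of BX795 minus mock therefore also holds the spread within the plasmid groups. For Ifi204 it ran from -0.67 to 0.51, with SDs of 1.19 FPKM in mock and 0.593 with BX795.

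**Figure D2:**
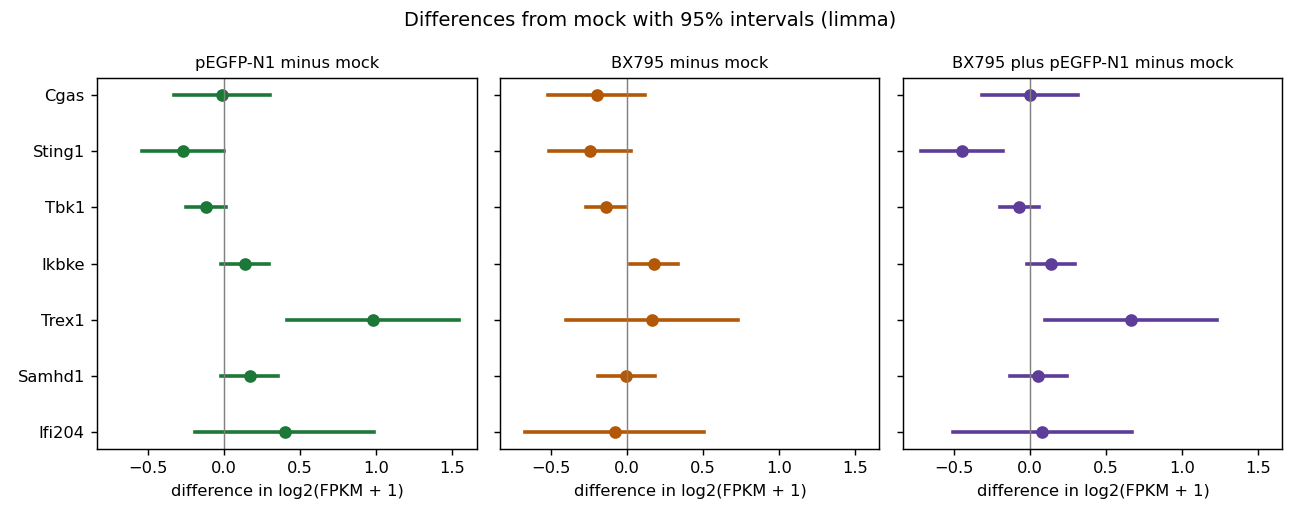
Differences from mock in log2(FPKM + 1) (x axes) for the 7 analysed genes (y axis), 1 panel for each treated group. Points are limma estimates and bars their 95% intervals, with 3 libraries a group; the estimates farthest from 0 were those of Trex1 with pEGFP-N1 (0.98) and with both (0.67), and of Sting1 with both (-0.45), and none passed the adjusted threshold.

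Cgas, which makes cGAMP on binding DNA, differed little between the groups. Mock replicates 1 to 3 had 2.82, 1.94 and 2.58 FPKM, those with pEGFP-N1 2.72, 1.74 and 2.83, those with BX795 2.30, 1.82 and 1.85, and those with both 2.56, 2.11 and 2.64. Every group overlapped with mock, and the library numbered 2 was the lowest of each group. The log2 difference from mock was -0.01 with pEGFP-N1 (95% interval -0.33 to 0.30), -0.20 with BX795 (-0.52 to 0.12) and 0.0011 with both (-0.32 to 0.32). With 1 library left out the difference with BX795 ran from -0.31 to -0.12. Isg15 was high in 3 libraries in which Cgas was at 2.56 to 2.83, and it ran from 1.74 to 2.82 in the other 9. Without the libraries that went against the labels, its difference from mock was 0.14 with pEGFP-N1 and -0.03 with both (limma adjusted p = 0.601 and 0.913; over the other settings tried, from 0.689 and from 0.926 to 1.0).

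Sting1, the adaptor that cGAMP binds, was below mock in most libraries. The mock libraries had 5.38, 6.26 and 5.73 FPKM, those with pEGFP-N1 4.48, 5.86 and 3.75, those with BX795 4.37, 5.18 and 4.65, and those with both 3.83, 4.36 and 3.73. By the labels, all 6 libraries with BX795 were below the lowest mock library, and so were pEGFP-N1 replicates 1 and 3. The library labelled pEGFP-N1 replicate 2, at 5.86, lay within the mock range, so Sting1 was below mock in 8 of 9 libraries, and the full separation of those 9 from mock, which 2.23% of tested genes showed in the lower direction, did not hold for it. If that library and BX795 plus pEGFP-N1 replicate 1 were exchanged, 5 of the 6 libraries with BX795 would be below mock. The group means were 5.79 ± 0.443 in mock, 4.70 ± 1.07 with pEGFP-N1, 4.73 ± 0.411 with BX795 and 3.97 ± 0.339 with both (SD, n = 3 each).

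Against mock, the log2 difference of Sting1 was -0.27 with pEGFP-N1 (SE 0.124; limma adjusted p = 0.9997), -0.24 with BX795 (SE 0.124; adjusted p = 0.394) and -0.45 with both (SE 0.124, 95% interval -0.72 to -0.18; unadjusted p = 0.00361, adjusted p = 0.290). On this scale the level with both was 0.732 times that of mock. Sting1 was also lower in all 3 libraries with both than in all 3 with BX795 alone, by a margin of 4.36 against 4.37, which was lost with quantile normalization; the log2 difference was -0.20 (adjusted p = 0.604). The plasmid groups with and without BX795 overlapped, at a difference of -0.18 (95% interval -0.45 to 0.09). With 1 library left out this difference ran from -0.30 to -0.04. Without the 2 libraries that went against the labels it was -0.02. The interaction for Sting1 was -0.06 (95% interval -0.45 to 0.32). Isg15 was high in libraries with Sting1 at 4.48, 3.75 and 3.83, but Sting1 was as low, at 3.73, in BX795 plus pEGFP-N1 replicate 3, where Isg15 was at 5.15.

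Without the 2 libraries whose readout went against the labels, the log2 difference of Sting1 was -0.41 with pEGFP-N1 (limma adjusted p = 0.0544), -0.24 with BX795 (adjusted p = 0.0959) and -0.43 with both (adjusted p = 0.0245). The last of these passed the threshold, as did 8.98% of all genes tested in that contrast. For pEGFP-N1 and for BX795 against mock, 3.09% and 14.2% of all genes then passed. Over the other settings tried, the adjusted p of Sting1 lay between 0.13 and 1.0 with pEGFP-N1, where its log2 difference ran from -0.41 without pEGFP-N1 replicate 2 to -0.15 without pEGFP-N1 replicate 3. The adjusted p lay between 0.0529 and 0.709 with BX795 and between 0.0848 and 0.822 with both, where its log2 difference ran from -0.54 to -0.40.

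The kinases that STING recruits lay on opposite sides of mock, by small amounts. Tbk1 measured 21.9, 20.9 and 20.9 FPKM in the mock libraries, 20.2, 18.8 and 19.5 in the pEGFP-N1 libraries, 19.5, 19.3 and 18.7 under BX795 alone, and 20.2, 19.3 and 21.2 under both. It was below all mock libraries in both single-treatment groups, while the group with both overlapped with mock, so that Tbk1, like Sting1, was below mock in 8 of 9 libraries. The log2 difference from mock was -0.12 with pEGFP-N1 (adjusted p = 0.9997), -0.14 with BX795 (SE 0.0592; adjusted p = 0.336) and -0.07 with both (adjusted p = 0.839). The interaction for Tbk1 was -0.19 (95% interval -0.37 to -0.01; unadjusted p = 0.0428, adjusted p = 0.842). Tbk1, which encodes a target of the inhibitor, had the narrowest spread of the 7 genes, with a highest library 1.17 times the lowest.

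Ikbke, which encodes IKKε, measured 4.40, 4.33 and 4.08 FPKM in the mock libraries, 4.85, 4.88 and 4.69 in the pEGFP-N1 libraries, 5.26, 5.03 and 4.62 under BX795 alone, and 4.77, 4.57 and 5.08 under both. It was the only one of the 7 genes with all 9 libraries outside mock on one side of the 3 mock libraries, here above them. Of all tested genes, 1.93% showed this pattern in the higher direction. Under quantile normalization Ikbke lost it, and its separation from mock with BX795, while Tbk1 gained it in the lower direction and was then also below mock with both. The log2 difference from mock was 0.14 with pEGFP-N1 (adjusted p = 0.9997), 0.18 with BX795 (SE 0.0726; unadjusted p = 0.0303, adjusted p = 0.321) and 0.14 with both (adjusted p = 0.662). Without the 2 libraries that went against the labels, the differences with pEGFP-N1 and with both were 0.13 and 0.14 for Ikbke (adjusted p = 0.412 and 0.279) and -0.09 and -0.07 for Tbk1 (adjusted p = 0.442 and 0.492). Over the other settings tried, the adjusted p in these comparisons was at least 0.396 for Ikbke and 0.575 for Tbk1.

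Counted over the 7 genes, the groups that did not overlap were as follows. For pEGFP-N1 against mock, 2 genes were higher (Trex1 and Ikbke) and 1 lower (Tbk1), beside 5.52% and 7.41% of all tested genes. For BX795 against mock, 1 was higher (Ikbke) and 3 lower (Sting1, Tbk1 and Ifi204), beside 23.6% and 16.2%. With both treatments against mock, 2 were higher (Trex1 and Ikbke) and 1 lower (Sting1), beside 7.15% and 7.73%. BX795 plus pEGFP-N1 against BX795 separated Trex1 upward and Sting1 downward, beside 4.0% and 6.66%. Against pEGFP-N1 it separated 0 of the 7 genes, beside 1.39% higher and 1.41% lower. Counts of 1 to 3 genes in a list of 7 are a description beside these shares.

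Trex1, Samhd1 and Ifi204 were highest in the 3 libraries with high Isg15, and within the other 9 they did not keep the order of Isg15. Trex1, the DNA exonuclease that limits cGAS activation, measured 4.75, 5.60 and 3.74 FPKM in the mock libraries, 11.6, 7.05 and 12.6 in the pEGFP-N1 libraries, 5.35, 5.88 and 4.78 under BX795 alone, and 13.0, 6.09 and 6.22 under both. The 3 highest values, 11.6 to 13.0, were those of the 3 libraries with high Isg15, and the other 9 lay between 3.74 and 7.05. The remaining plasmid libraries, at 7.05, 6.09 and 6.22, were still above the highest mock library, so Trex1 did not overlap with mock in either plasmid group. The log2 difference from mock was 0.98 with pEGFP-N1 (SE 0.259, 95% interval 0.41 to 1.55; unadjusted p = 0.00277, adjusted p = 0.475), 0.16 with BX795 (-0.40 to 0.73; 0.04 to 0.28 with 1 library left out) and 0.67 with both (0.10 to 1.23; adjusted p = 0.486).

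The values of Trex1 carry an uncertainty of assignment. Of the sequences of 31 bases in its transcripts, 97.6% are shared with Atrip, whose annotated transcripts run through the Trex1 gene, and the authors' quantification divides such reads between genes. Atrip, a partner of the checkpoint kinase ATR, was between 6.19 and 7.87 FPKM in all libraries and at 7.68, 7.87 and 7.60 in the 3 libraries with high Isg15, and its part in the Trex1 values was not tested.

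Samhd1, the deoxynucleotide triphosphohydrolase, measured 24.8, 25.5 and 24.9 FPKM in the mock libraries, 29.9, 25.2 and 30.0 in the pEGFP-N1 libraries, 25.4, 25.2 and 24.4 under BX795 alone, and 29.5, 24.0 and 25.04 under both. The libraries with high Isg15 lay between 29.5 and 30.0 and the other 9 between 24.0 and 25.5. All groups overlapped with mock, and the log2 difference with pEGFP-N1 was 0.17 (95% interval -0.02 to 0.36; adjusted p = 0.9997). The step in Samhd1 was thus small but set apart from a narrow range in the other libraries.

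Ifi204, the PYHIN gene with the highest level, measured 36.4, 34.4 and 36.4 FPKM in the mock libraries, 61.9, 30.6 and 56.1 in the pEGFP-N1 libraries, 33.2, 34.4 and 33.6 under BX795 alone, and 60.0, 31.7 and 28.5 under both. Again the 3 libraries with high Isg15 were set apart, at 56.1 to 61.9 against 28.5 to 36.4 in the other 9. Relative to the mock mean they were at 1.73, 1.57 and 1.68 times, while pEGFP-N1 replicate 2 and BX795 plus pEGFP-N1 replicates 2 and 3 were at 0.855, 0.886 and 0.797 times, below every mock library. The BX795 libraries were also below mock, by a margin of 34.35 against 34.37 that was lost with quantile normalization. The log2 difference from mock was 0.40 with pEGFP-N1 (95% interval -0.19 to 0.99), -0.08 with BX795 and 0.08 with both, none called. With 1 library left out the difference with pEGFP-N1 ran from 0.21 to 0.71. Of the sequences of 31 bases in Ifi204, 34.6% are shared with other genes, first of all Ifi211, Mndal and Ifi207. Its level therefore carries an uncertainty of assignment, whose size was not tested.

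**Figure D3:**
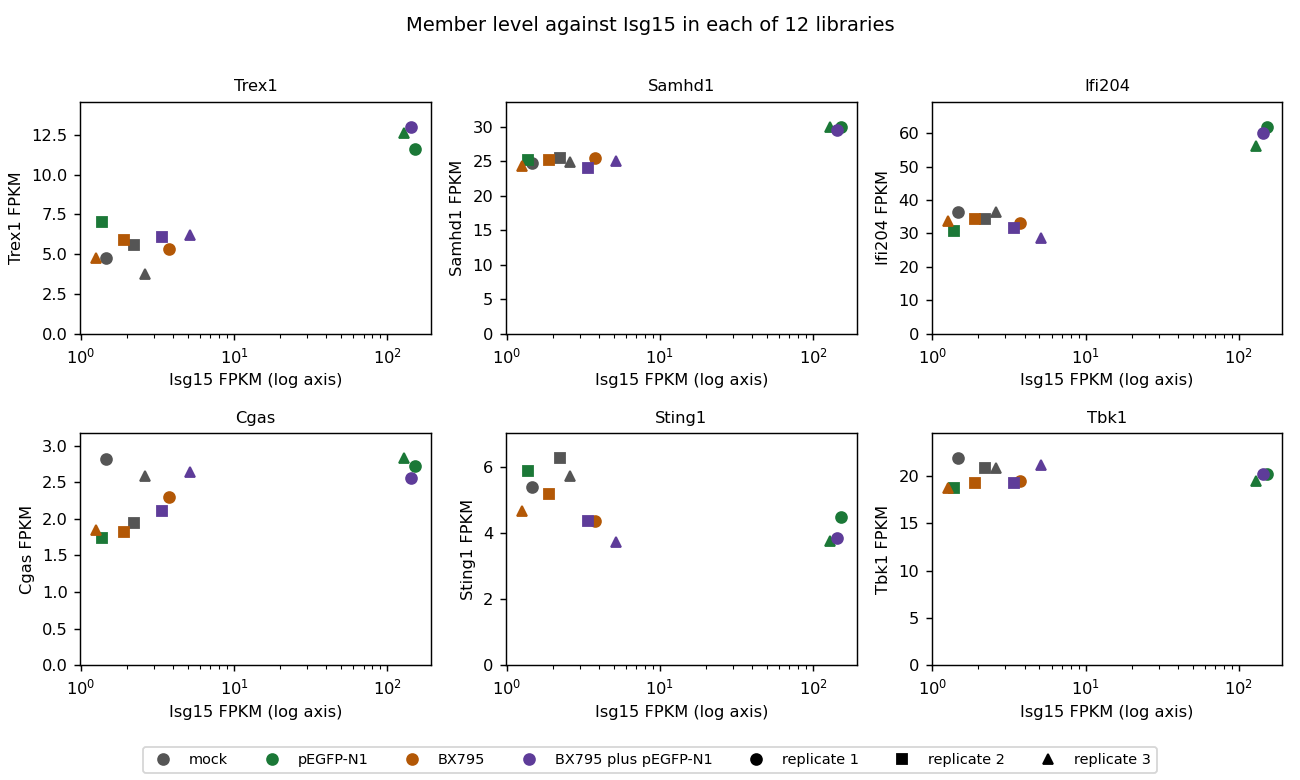
FPKM of 6 of the analysed genes (y axes, from 0) against FPKM of Isg15 (x axes, logarithmic) in 12 libraries, coloured by group, with 1 symbol for each replicate number. Libraries fell into a set of 9 with Isg15 at 5.15 or below and a set of 3 at 129 or above; Trex1, Samhd1 and Ifi204 were highest in those 3, while Cgas, Tbk1 and Sting1 overlapped between the sets.

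Having the same 3 highest libraries as Isg15 was shared by 3 of the 7 genes, or 42.9%, and by 9.99% of all tested genes. Tbk1, at 19.5 to 20.2 FPKM in those libraries, and Ikbke, at 4.69 to 4.85, lay within the range of the other 9 libraries, as did Sting1, and Cgas overlapped with it. None of the 7 genes had its 3 lowest values there, which 13.6% of all genes had. Of the 5 detected fibroblast markers, 4 had their lowest values in the same 3 libraries, and their part in the results was not tested. Col1a2 was at 26.5 to 27.6 FPKM there against 34.9 to 41.7 in the other 9, Pdgfrb at 20.6 to 22.2 against 30.6 to 41.2, Col1a1 at 48.1 to 53.6 against 55.9 to 78.4, and Fn1 at 6.05 to 6.49 against 6.59 to 9.19. The remaining one, Vim, overlapped. In bulk RNA, more cells responding and more RNA per responding cell cannot be told apart.

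Without the 2 libraries whose readout went against the labels, limma called Trex1 (log2 difference 1.22, adjusted p = 0.000194), Ifi204 (0.71, adjusted p = 7.69e-05) and Samhd1 (0.25, adjusted p = 0.0282) for pEGFP-N1 minus mock. That was 3 of the 7 genes, beside 3.09% of all genes. The same 3 genes were called for BX795 plus pEGFP-N1 minus pEGFP-N1, at -0.87 (adjusted p = 0.00184), -0.95 (1.43e-05) and -0.28 (0.00826), beside 17.8% of all genes. The interaction was called for Trex1, at 1.04 (adjusted p = 0.0162), and Ifi204, at 0.87 (adjusted p = 0.000442), beside 0.947% of all genes, and was 0.28 for Samhd1 (adjusted p = 0.206). In BX795 plus pEGFP-N1 minus BX795, 0% of genes passed with or without these libraries. With both treatments Ifi204 was below mock, at -0.24 (adjusted p = 0.0419), and Trex1 was at 0.34 (adjusted p = 0.116). These libraries were left out because of their Isg15 level, so for genes with the same highest libraries as Isg15 the calls are a description of the remaining libraries and not independent evidence. Over the other settings tried, the adjusted p for pEGFP-N1 minus mock ran from 0.0833 to 1.0 for Trex1, from 0.227 for Samhd1 and from 0.229 for Ifi204. For BX795 plus pEGFP-N1 minus pEGFP-N1 it ran from 0.237, 0.266 and 0.24 in the same order, for the interaction from 0.716 for Trex1 and 0.771 for Ifi204, and for Ifi204 with both against mock from 0.602.

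Ifi204 lies on chromosome 1 at 173747293 to 173766943 (GRCm38, minus strand) in a cluster of PYHIN genes, and its tested relatives showed the same libraries highest. This held for 7 of 7 tested PYHIN genes: Ifi204, Ifi202b, Ifi203, Ifi205, Ifi207, Ifi211 and Mndal. They share sequence, 78.9% of that of Ifi211 for example, so they are not independent measurements. Relative to mock, Ifi207 had the largest step of the 7, at 15.1, 13.9 and 14.7 FPKM in the 3 libraries with high Isg15 against 1.24 to 2.72 in the other 9, and Mndal had a small one, at 7.99, 7.29 and 8.02 against 4.87 to 6.92. With BX795 alone, 4 of the 7 were below all mock libraries (Ifi203, Ifi204, Ifi207 and Mndal) and 0 were above, beside 16.2% and 23.6% of all tested genes, a count made after the values were seen; Ifi204 left it under quantile normalization. Ifi203 measured 7.0, 7.49 and 8.27 FPKM with BX795 against 11.2, 10.3 and 12.7 in mock (log2 difference -0.53, limma adjusted p = 0.446). The adjusted p was 0.00438 without the 2 libraries and 0.00363 to 0.724 over the other settings. Neither of the 2 libraries is in these groups, so the difference stayed the same and only the estimate of spread changed. The lower adjusted p is therefore not independent evidence of a fall. A further 5 PYHIN genes, Ifi206, Ifi208, Ifi209, Ifi213 and Ifi214, stayed at 0.46 FPKM or below in all libraries and were not tested.

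**Figure D4:**
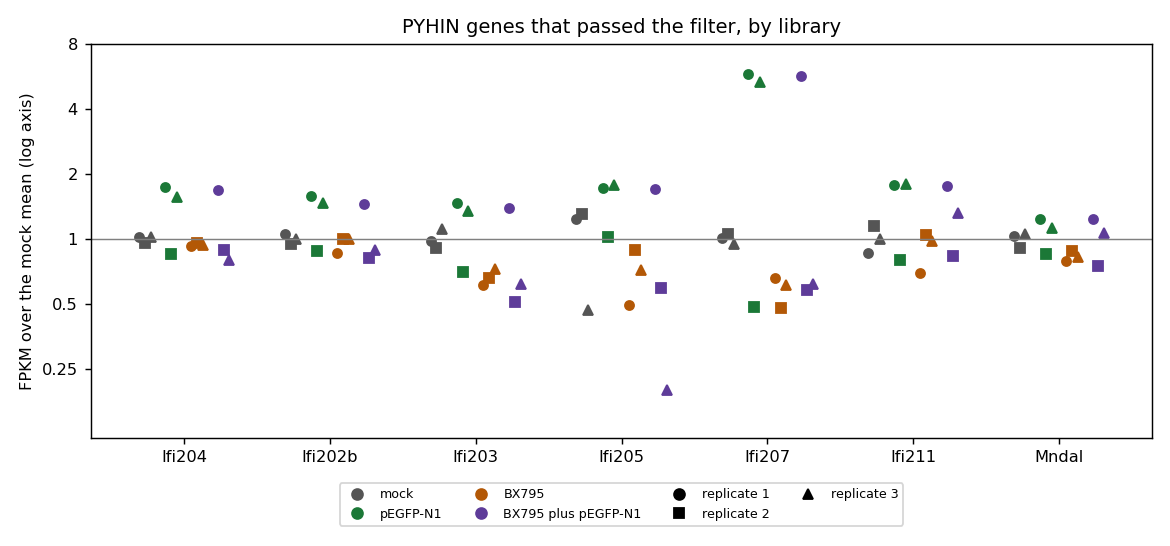
FPKM over the mock mean (y axis, logarithmic) of the 7 PYHIN genes that passed the filter (x axis) in each library, coloured by group, with 1 symbol for each replicate number and a line at 1. Ifi207 was the farthest above the line in the 3 libraries with high Isg15, and Ifi204 was at 1.73, 1.57 and 1.68 times in them.

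Promoter sequence was examined for the elements through which interferon acts. Windows from 250 bases before to 50 after the RefSeq start of a gene (build GRCm38.p6) were used for 5 of the 7 genes, Cgas, Tbk1, Ikbke, Trex1 and Samhd1, and searched on both strands. The core of the interferon-stimulated response element, searched as GAAA followed by any 2 bases and a second GAAA, was in none of these windows, while 3.44% of all 32851 windows hold it. The gamma-activated site, TTCNNNGAA, was only in that of Samhd1, at positions -235 to -227 from the start, and 8.3% of all windows hold it. A stretch around it is shown because Samhd1 is one of the 3 genes with the same highest libraries as Isg15, with the site in capitals, at chr2:157135312-157135341 on the minus strand.
Samhd1: acaccaccctTTCGGAGAAacacaagggcg

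Most PYHIN relatives of Ifi204 held the response element core. All 6 other tested PYHIN genes have a window and 5 of them hold it, Ifi203, Ifi205, Ifi207, Ifi211 and Mndal, as does the window of Isg15. In the 80 tested genes of the wider pathway that are not among the 7, 63 have a window, 6 of these hold the core (the sixth is Pld3, an exonuclease of lysosomes) and 9 the gamma-activated site. For each gene 1 core on the minus strand, the strand of these genes, is shown in capitals with 10 bases on each side, because all of them were highest in the same 3 libraries. The window of Ifi205 holds 2 cores, the second on the plus strand, and that of Isg15 holds 3 that overlap. Mndal has 2 windows with 1 core in each, the second on the plus strand. The stretches shown lie at chr1:173942508-173942537, chr1:174031870-174031899, chr1:173741831-173741860, chr1:173913064-173913093, chr1:173880204-173880233 and chr4:156200871-156200900 in this order.
Ifi203: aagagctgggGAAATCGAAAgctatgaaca
Ifi205: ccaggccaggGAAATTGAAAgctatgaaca
Ifi207: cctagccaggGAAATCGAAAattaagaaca
Ifi211: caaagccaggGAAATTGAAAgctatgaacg
Mndal: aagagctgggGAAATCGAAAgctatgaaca
Isg15: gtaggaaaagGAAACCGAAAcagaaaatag

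The GAAA letters are fixed by the search, and the bases between them differ among the stretches, of which those of Ifi203 and Mndal are identical. Of the 5 PYHIN genes that stayed under the filter, 4 hold the core as well (Ifi206, Ifi208, Ifi213 and Ifi214), so the letters were found both in genes that stepped up with Isg15 and in genes that were barely detected. Trex1 and Samhd1 had the same highest libraries as Isg15 without the core in their windows.

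A wider list of 114 pathway genes in 8 roles, the 7 genes included, was examined beside them; 107 were analysed and 87 tested. Of the 80 tested genes that are not among the 7, limma called 1 for pEGFP-N1 minus mock, 0 for BX795 minus mock and 1 with both, all of it Irf1, and 0 in the other 3 contrasts. At an unadjusted p under 0.05 the counts for the 6 contrasts were 7, 17, 6, 5, 1 and 7 of 80, beside 488, 1442, 890, 579, 166 and 407 of 10412 genes. Of the 80, 18 genes, or 22.5%, had the same 3 highest libraries as Isg15 and 10, or 12.5%, had them lowest, beside 9.99% and 13.6% of all tested genes. Of those 18, Zbp1 and Usp18 were under 1 FPKM in the other 9 libraries and so passed the filter only through these 3, as did 35 of the 1040 genes among all tested genes and 0 of the 3 among the 7.

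Irf1, a transcription factor of interferon genes, measured 12.7, 12.9 and 14.9 FPKM in the mock libraries, 28.7, 22.7 and 27.8 in the pEGFP-N1 libraries, 24.6, 21.7 and 23.0 under BX795 alone, and 28.6, 23.9 and 20.2 under both. All 9 libraries outside mock were above all mock libraries, as for Ikbke. Within them Irf1 also had the same 3 highest libraries as Isg15, at 27.8 to 28.7 against at most 24.6. The log2 difference was 0.91 with pEGFP-N1 (SE 0.123, limma adjusted p = 0.0265), 0.73 with BX795 (adjusted p = 0.0755) and 0.79 with both (adjusted p = 0.0433). Without the 2 libraries that went against the labels, Irf1 was called in all 3 comparisons with mock, at 1.01, 0.73 and 0.67 (limma adjusted p = 5.33e-05, 0.000266 and 0.00119). This was beside 3.09%, 14.2% and 8.98% of all genes. As these libraries were left out because of their Isg15 level, the calls are a description and not independent evidence. Over the other settings tried its adjusted p ran from 0.00779 to 0.241, from 0.000299 to 0.367 and from 0.0216 to 0.272, while its size changed less: with any 1 library left out the difference was 0.85 to 1.01 with pEGFP-N1 and 0.67 to 0.91 with both, and every treated library was at 1.49 to 2.12 times the mock mean. With all 4 groups fitted, the call with pEGFP-N1 was lost without mock replicates 1, 2 or 3, pEGFP-N1 replicates 1 or 3, BX795 replicates 2 or 3, or BX795 plus pEGFP-N1 replicate 2, each left out alone. The call with both was kept only without pEGFP-N1 replicate 2 or BX795 plus pEGFP-N1 replicates 1 or 3.

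By role, the transcription factors gave the 1 called gene among 5 tested, and the other 7 roles gave 0. Among 16 tested DNA sensors and PYHIN genes, Zbp1, a sensor of nucleic acids in the Z form, was farthest from mock with pEGFP-N1, at a log2 difference of 1.42 (adjusted p = 0.995), with 4.10, 0.23 and 3.54 FPKM against 0.08 to 0.19 in mock. Among 8 cGAS partners and modifiers, the stress granule gene G3bp1, whose protein helps cGAS bind DNA, was at 0.13 with pEGFP-N1 and the SUMO protease gene Senp7 at 0.22 with BX795. Among 9 genes of DNA and nucleotide clearance, Trex1 was farthest from mock with pEGFP-N1 and Rnaseh2c, a subunit of ribonuclease H2, with BX795 at 0.30 (adjusted p = 0.280).

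Among 8 genes of cGAMP transport and breakdown, Lrrc8d, a subunit of the volume-regulated anion channel, was at 30.7, 15.7 and 29.5 FPKM with pEGFP-N1 against 15.6 to 16.4 in mock (log2 difference 0.57, adjusted p = 0.917). Without the 2 libraries that went against the labels Lrrc8d was called, at 0.87 (limma adjusted p = 0.00018, and 0.0503 to 1.0 over the other settings), beside 3.09% of all genes. Its 3 highest libraries were those of Isg15, whose level was the reason for leaving out the 2 libraries. The call is therefore a description and not independent evidence. P2rx7, the ATP-gated channel, was farthest from mock with BX795, at 0.53 (adjusted p = 0.275). Among 25 genes of STING traffic and modification, Sting1 had the largest difference with both treatments. Usp18, a deISGylase induced by interferon, was at 0.99 with pEGFP-N1 (limma adjusted p = 0.9997), and at 0.95 to 1.63 with 1 library left out. Insig1, a membrane protein of the endoplasmic reticulum, was at 0.41 with BX795 (limma adjusted p = 0.10). Among 14 kinases and adaptors around TBK1, the ubiquitin ligase gene Mib2 was at 0.20 with pEGFP-N1 (0.08 without pEGFP-N1 replicate 2) and Optn, an autophagy receptor that TBK1 phosphorylates, at 0.55 with BX795 (adjusted p = 0.301). The 2 tested genes of the AIM2 inflammasome, the pore-forming Gsdmd and the protease gene Casp1, lay between -0.12 and 0.06 of mock in the 3 comparisons. Of the genes named by role, Zbp1 and Usp18 fell under the filter without the 2 libraries. In BX795 minus mock, where the differences stayed the same because neither library is in these groups, Rnaseh2c, P2rx7, Insig1, Mib2 and Optn were then called besides Irf1 and Ifi203 (adjusted p = 0.0184, 0.0126, 0.000661, 0.0167 and 0.000645), beside 14.2% of all genes. Over the other settings tried, their adjusted p ran from 0.000355 to 0.65.

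The genes most like each of the 7 over the 12 libraries were sought among tested genes with a mean of at least 5 FPKM, by the root mean square difference of log2(FPKM + 1) relative to each gene's own mock mean. For Ifi204 they were Apobr (0.0703), LOC100044068 (0.0741) and the relative Ifi202b (0.112). For Trex1 they were Gypc (0.182), Trim26 (0.188) and Car13 (0.216), and for Samhd1 Igsf3 (0.0402), Gemin4 (0.0405) and Kat2a (0.0497). For Sting1 they included Rapgef3 (0.0872) and Shb (0.108). The genes nearest to Cgas, Tbk1 and Ikbke were Rbm25 (0.0576), Cdc45 (0.0293) and Ing3 (0.0472).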

How the data were processed

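RNA-seq libraries of L929 cells were sequenced by the authors on a BGISEQ-500, aligned to GRCm38.p5 with Bowtie2 2.2.5 and quantified with RSEM, and reads with several alignments were kept. The deposited values are FPKM, rounded to 2 decimals by the authors, with Entrez identifiers, of which 17450 of 17571 were matched to a symbol. Groups and replicate numbers came from the labels. The treatment text in the labels is the same for every library and speaks of plasmid throughout; the agent label and the study's methods were followed. Of 66 pairs of libraries, 0 were identical. FPKM gives no read counts, so no interval of counting error was possible.

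With R 4.3.3 and limma 3.58.1, log2(FPKM + 1) was fitted with 4 group means and empirical Bayes moderation with a trend, for genes with at least 1 FPKM in at least 3 libraries. Python 3.11.15 (pandas 2.3.3, scipy 1.17.1) was used for the rest. The script was tested on simulated data. Positions and shared sequences of 31 bases came from GENCODE M21 (GRCm38), promoter windows from RefSeq.

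The members and lists were chosen with earlier results of these data known. All 7 analysed genes are named with every value. From the wider list a gene is named if called, or if farthest from mock in its role with pEGFP-N1 or with BX795. The 3 most alike genes of each of the 7 were found, of which 1 is not reported here, and the relatives of Ifi204, Atrip and the readout genes are named besides. Leaving out pEGFP-N1 replicate 2 and BX795 plus pEGFP-N1 replicate 1 together was chosen after seeing the data.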

Additional observations from a re-analysis of the deposited data

How the results depend on the processing

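Of 899 differences of single genes over 23 planned settings, 875 kept their sign, 24 changed it and 0 were called; the largest reported size among those that changed was 0.16. The cause of the changes below was not tested. With quantile normalization Cgas was at -0.0412 for BX795 plus pEGFP-N1 minus mock and at -0.0069 for BX795 plus pEGFP-N1 minus pEGFP-N1, where Ikbke was at 0.0273 with TPM and 0.0003 with scaling to the 75th percentile.

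With 1 library left out at a time, Cgas ran from -0.1245 to 0.1399 for pEGFP-N1 minus mock, from -0.1092 to 0.0797 for both minus mock and from -0.1387 to 0.1028 for both minus pEGFP-N1. Samhd1 ran from -0.0174 to 0.0122 for BX795 minus mock, from -0.0313 to 0.1123 for both minus mock and from -0.0262 to 0.1174 for both minus BX795. Ifi204 ran from -0.2429 to 0.2813 and from -0.1609 to 0.3634 in the last 2, and in each the lowest value was that without BX795 plus pEGFP-N1 replicate 1. Ikbke ran from -0.0344 to 0.0288 for both minus pEGFP-N1, and the interaction for Sting1 from -0.2054 to 0.0597. Without pEGFP-N1 replicate 2 and BX795 plus pEGFP-N1 replicate 1 together, a setting chosen after seeing the data, Cgas was at 0.1399, -0.026 and -0.1659 in the 3 contrasts given for it, Samhd1 and Ifi204 were at the lowest values given with both treatments, Ikbke was at 0.0124 and the Sting1 interaction at -0.2254. Of the 7 genes, 3, 2, 3 and 2 were then called for pEGFP-N1 minus mock, both minus mock, both minus pEGFP-N1 and the interaction.

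Of the 84 pathway genes tested without those libraries, 11, 19, 13, 25 and 6 were called for pEGFP-N1, BX795 and both minus mock, both minus pEGFP-N1 and the interaction, beside 3.09%, 14.2%, 8.98%, 17.8% and 0.947% of all genes. The 1 call for pEGFP-N1 minus mock became 0 with no filter, with only the groups compared or at the thresholds of the study's methods (0 to 1 with 1 library left out). For BX795 minus mock, fitting only these groups called 23, beside 2150 of 10412 genes, and leaving out 1 library gave 0 to 2 (2 without pEGFP-N1 replicate 2 or BX795 plus pEGFP-N1 replicate 1, 1 without BX795 plus pEGFP-N1 replicate 3). For both minus mock the 1 call became 0 with no filter, 75th percentile scaling, quantile normalization, only the groups compared, those thresholds or the replicate block, and leaving out 1 library gave 0 to 4 (4 without BX795 plus pEGFP-N1 replicate 1).

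Whether replicate numbers pair the libraries is not settled: 6 of 18 same-numbered pairs had correlations of their deviations over 0.1. The mean correlation was 0.1155 for same-numbered pairs and -0.0654 for pairs with other numbers. The 2 libraries against their labels enter these deviations. The replicate block changed no other call. Unknown depth, 3 libraries a group, 2 libraries against their labels, and reads shared by Trex1 with Atrip and by Ifi204 with its relatives limit these values.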
